A study of Homo sapiens with 4 samples.

Results

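The genes described here encode enzymes and cofactors that fold proteins in the endoplasmic reticulum (ER), and the machinery of ER-associated degradation, which removes proteins that fail to fold. The set was given as 40 gene symbols, of which 39 equalled a symbol in the deposited table of 16057 genes. They comprise 20 folding genes, 16 degradation genes and 3 further genes (ERN1, WFS1 and CREB3L2). VIMP matched no row under that symbol. Its current symbol is SELENOS, whose row is described beside the degradation genes and is not counted among the 39.

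RNA sequencing was run on total RNA of MM.1S cells, a human line established from multiple myeloma, a cancer of plasma cells, and kept in RPMI-1640 medium with serum, antibiotics and glutamine. The treated group received JG342, an allosteric inhibitor of HSP70 chaperones, at 350 nM for 26 h. The control group received the solvent DMSO for the same 26 h. Each group has 2 libraries, numbered 1 and 2 and described by the submitters as biological duplicates, so p-values measure the spread between these 2 libraries of 1 cell line at 1 dose and 1 time.

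Values are in TPM, an abundance that corrects for transcript length and has a fixed library total, so levels of different genes can be compared. The totals lay between 994463 and 994718 TPM in the 4 libraries, and TPM does not record how many reads lie behind a value. Between 1118 and 1418 genes per library were listed at 0, and none of the 39 genes was. The plasma cell markers fixed for the check (SDC1, PRDM1, IRF4, XBP1, CD38, TNFRSF17, SLAMF7 and JCHAIN) were all present, and their sum was 13120 to 13270 TPM with DMSO and 8527 to 9225 TPM with JG342. The lower sum came from JCHAIN (NM_144646), with 9907 and 10383 TPM against 5732 and 5431 TPM. The other 7 markers summed to 3362 and 2737 TPM with DMSO and to 3494 and 3096 TPM with JG342. These did not move alike. IRF4 was at 353 TPM in both DMSO libraries and at 588 and 615 TPM with JG342. PRDM1 was also higher without overlap, at 176.5 and 154 TPM against 220 and 205 TPM. TNFRSF17 was lower without overlap, at 761 and 581.5 TPM against 517.5 and 463 TPM. For SDC1, XBP1, CD38 and SLAMF7 the 2 treatments overlapped. The T cell sum was 3.35 to 7.97 TPM, nearly all from CD3E, and the myeloid sum 37.4 to 46.2 TPM, nearly all from LYZ. The epithelial sum was 4.42 to 8.56 TPM and the fibroblast sum 0.13 to 0.22 TPM. In bulk RNA, fewer cells with a transcript and less of it per cell cannot be told apart.

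Proteins that enter the ER receive sugar chains and disulfide bonds and fold with the help of lectin chaperones, oxidoreductases of the protein disulfide isomerase family and prolyl isomerases. Proteins that remain misfolded have mannose trimmed from their sugar chains, are handed to a ligase complex in the ER membrane, pulled into the cytosol by the ATPase VCP and degraded by the proteasome. Plasma cells and myeloma cells secrete large amounts of immunoglobulin and depend heavily on both arms. The unfolded protein response, which starts from the sensors IRE1 (gene ERN1), ATF6 and PERK, raises transcription of many of these genes.

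Of the 39 genes, 13 passed the test of JG342 against DMSO (33.3%), set at a limma adjusted p under 0.05, against 18.4% of the 12042 genes fitted. Higher with JG342 were 10 of the 39 (25.6%), against 10.8% of all fitted genes. Lower were 3 (7.69%), near the 7.62% of all fitted genes. All 39 passed the filter of a mean of at least 1 TPM, and 38 lay above the overall median level. The median of their means was 160 TPM, against 21.4 TPM over all fitted genes. Whether this higher level bears on the share of calls was not tested. The genes were chosen with earlier results of these data known, so the share is a description only. The median log2 fold change of the 39 was 0.19, beside 0.03 over all fitted genes. The folding genes held 2 of the 13 calls (2 of 20, both higher, median 0.16). The degradation genes held 8 (8 of 16, 5 higher and 3 lower, median 0.23), and the 3 further genes all rose. Without the mean-variance trend all 3 lower calls were lost (limma adjusted p 0.0786 for DERL3, 0.0741 for VCP and 0.0530 for UFD1). The 5 higher calls among the degradation genes remained, and 9 of the 39 genes passed, all higher. Whether the folding and the degradation genes differ from each other was not tested.

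**Figure D1:**
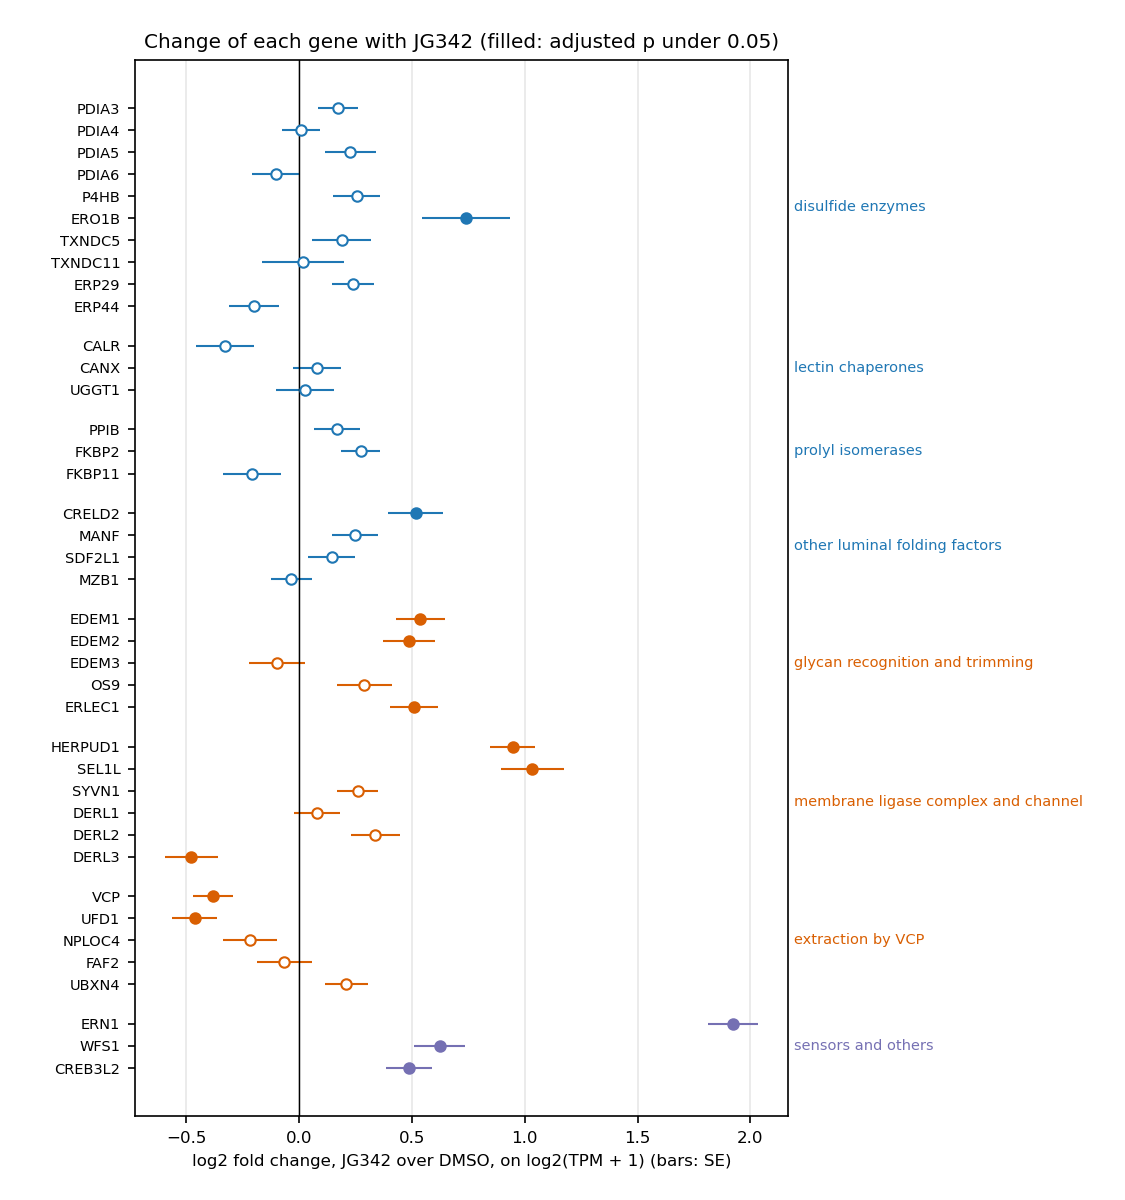
Log2 fold change of JG342 over DMSO on the log2(TPM + 1) scale (horizontal axis) for each of the 39 genes, grouped by role; bars are standard errors and filled points passed at an adjusted p under 0.05. The filled points are 2 folding genes, 8 degradation genes and the 3 sensors and others, and ERN1 lies farthest from 0 at 1.92.

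The 2 treatments did not overlap for 28 of the 39 genes, or 71.8%, against 62.1% of all fitted genes. When JG342 was set against the DMSO library of the same number, both pairs gave 1 sign for 31 of the 39 (79.5%), against 75.5% of all fitted genes. JG342 replicate 1 lay above JG342 replicate 2 for 29 of the 39 genes, compared with 56.5% of all fitted genes. The labels give same-numbered libraries a shared prefix in their descriptions, so the number was also fitted as a block. With it, 23 of the 39 genes passed, against 34.9% of all fitted genes. That fit leaves 1 residual degree of freedom and takes each gene's variance from its level alone. Scaling the libraries to equal medians in addition gave a finite prior, and 17 of the 39 passed, against 33.1%.

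The count of 13 also moved with other settings. It was 5 without the filter on low values, against 5.16% of all genes then fitted, and 9 without the mean-variance trend (12.5%). It stayed at 12 to 14 with a pseudocount of 0.1 (18.2% of all fitted genes), a minimum mean of 5 TPM (23.0%), median scaling (18.0%) and quantile normalization (16.6%). Leaving out DMSO replicate 1 left 6 (8.78%), DMSO replicate 2 left 3 (6.40%) and JG342 replicate 1 left 8 (13.5%). Without JG342 replicate 2 the count was again 13 (15.9%), of which 11 were among the original 13: EDEM2 and VCP were lost (limma adjusted p 0.0713 and 0.0640), and CALR and OS9 were gained (0.0336 and 0.0461). HERPUD1, SEL1L and ERN1 passed in all 4 fits. Median scaling also turned the balance of all calls, from 1304 higher of 2221 (58.7%) to 966 higher of 2166 (44.6%), and the median of all fitted genes from 0.03 to −0.03.

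**Figure D2:**
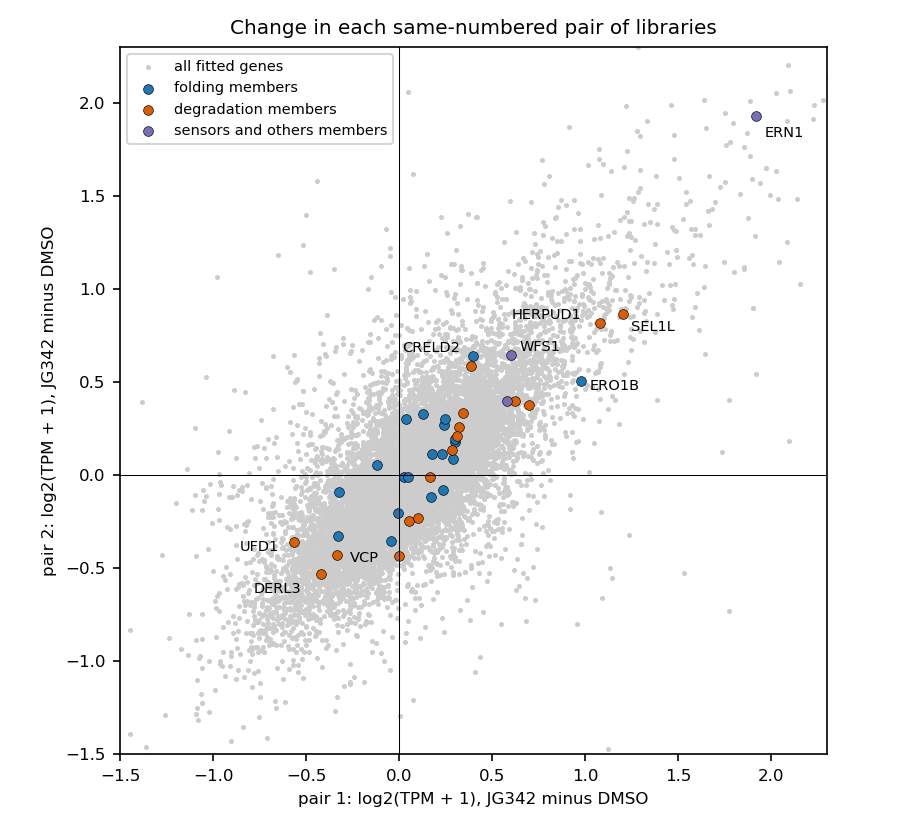
Difference of log2(TPM + 1) between JG342 and DMSO in the libraries numbered 1 (horizontal axis) and numbered 2 (vertical axis), for all fitted genes (grey; genes beyond the axes are not drawn) and the 39 genes by group. ERN1, SEL1L and HERPUD1 lie far along the diagonal in both pairs, and UFD1, DERL3 and VCP are below 0 in both.

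Promoter sequences are shown for 4 genes that passed and whose window, 250 bases before to 50 bases after a RefSeq start site, holds a motif known from ER or amino acid stress. They are the 4 of 5 such genes with the smallest adjusted p. The 4 motifs below were searched as exact letters on both strands. The ER stress element (ERSE) reads CCAAT, any 9 bases, then CCACG. ERSE-II reads ATTGG, any base, then CCACG. The unfolded protein response element (UPRE) reads TGACGTGG, and the C/EBP-ATF response element (CARE) reads TGATGNAA, where N is any base. The reverse complement of the UPRE begins with the letters CCACG, so it can overlap either ERSE. Sequences are from RefSeq on GRCh38.p14, 5′ to 3′ in the direction of transcription, with the motifs in capitals.
HERPUD1, chr16:56931948-56932047, plus strand: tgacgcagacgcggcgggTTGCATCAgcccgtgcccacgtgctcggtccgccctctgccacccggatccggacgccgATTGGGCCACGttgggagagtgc
CRELD2, chr22:49918513-49918612, plus strand: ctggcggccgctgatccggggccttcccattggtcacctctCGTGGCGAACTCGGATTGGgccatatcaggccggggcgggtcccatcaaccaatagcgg
VCP, chr9:35072796-35072825, minus strand: ttgcggccaatTGACGTGGcgttactaggc
CREB3L2, chr7:137932965-137932994, minus strand: agtcacagcgttacctgggagcTGATGAAA

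HERPUD1 holds a CARE on the reverse strand at positions −176 to −169 from the start site, and an ERSE-II at −117 to −107. CRELD2 holds an ERSE on the reverse strand at −80 to −62. VCP holds a UPRE at −189 to −182, under an exon that GENCODE release 29 annotates there, so 30 bases are shown. CREB3L2 holds a CARE just after the start, at 16 to 23, so 30 bases are shown here too, most of them after the start. Windows were found for 35 of the 40 listed symbols, 48 windows in all, since several genes have more than 1 start, and these windows can share bases. DERL1, DERL3, PDIA3, UFD1 and VIMP had no window, so DERL3 and UFD1, which passed as lower, were not searched. An ERSE was found for 5 of the 35 genes (14.3%; 7 of their 48 windows), and in 0.0769% of all 35116 windows in the table. The 5 are CALR, CANX, PDIA6, ERO1B and CRELD2, and of these ERO1B and CRELD2 passed the test. An ERSE-II was found for HERPUD1 and SDF2L1 (4.17% of the 48 windows, 0.0541% of all windows). A UPRE was found for TXNDC5, TXNDC11 and VCP (6.25% against 0.729%). A CARE was found for HERPUD1 and CREB3L2, in 4.17% of the 48 windows, near the 3.62% of all windows. Genes with a match therefore include genes that rose, VCP, which fell, and 6 that did not pass.

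**Figure D3:**
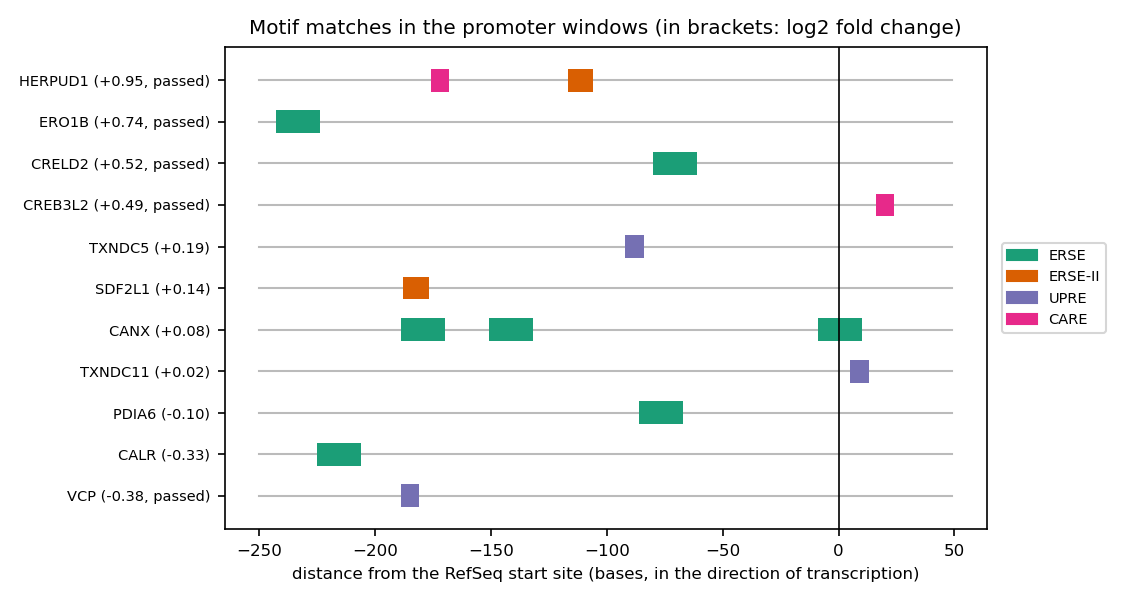
Position of each motif match relative to the RefSeq start site (bases, 0 is the start), 1 line per gene, ordered by log2 fold change (in brackets). The 3 ERSE bars on the CANX line are the same stretch of DNA seen from 3 alternative starts; HERPUD1, the top line, is the only gene with matches to more than 1 of the motifs.

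Among the enzymes that make or rearrange disulfide bonds and their thioredoxin-fold relatives (disulfide enzymes for short), 1 of 10 passed. That gene was higher, and its share of 10% is near the 10.8% of all fitted genes. ERO1B (NM_019891), an oxidase that recharges protein disulfide isomerases, was listed at 2.96 and 3.08 TPM with DMSO and at 6.80 and 4.78 TPM with JG342. Both treated libraries lay above both controls. It rose from 3.02 ± 0.08 to 5.79 ± 1.43 TPM (SD, n = 2), by 0.74 ± 0.20 (log2 scale, ± SE, as for all such values below; limma adjusted p 0.0310; 0.0593 after quantile normalization). ERO1B had the lowest mean of the 39 genes. Its more abundant relative ERO1A, which carries out the same reaction, was listed at 35.4 and 37.6 TPM with DMSO and 37.7 and 32.7 TPM with JG342. The ratio of ERO1B to ERO1A was 0.0837 and 0.0819 with DMSO and 0.180 and 0.146 with JG342.

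TXNDC5 (NM_001145549), a disulfide isomerase with high levels in plasma cells, was the most abundant of the 39 genes and did not pass. It was listed at 4635 and 4155 TPM with DMSO and 5666 and 4411 TPM with JG342. The ranges overlapped, and the log2 fold change was 0.19 ± 0.13 (limma adjusted p 0.357). P4HB (NM_000918), the founding protein disulfide isomerase, was listed at 1181 and 1036 TPM with DMSO and 1396 and 1250 TPM with JG342. Both treated values lay above both controls, by 0.26 ± 0.10 (limma adjusted p 0.124; 0.00272 with the block). PDIA4, a larger isomerase of the family, was nearly level, at 394.3 and 396 TPM against 402 and 393 TPM. PDIA3, the isomerase that works with the lectin chaperones, was at 321 and 325 TPM against 377 and 352 TPM (limma adjusted p 0.214).

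PDIA6 was at 608 and 585 TPM with DMSO and 606 and 508 TPM with JG342, and PDIA5, far less abundant, at 39.9 TPM in both DMSO libraries and 43.7 and 50.3 TPM with JG342. TXNDC11 varied more between replicate numbers than between treatments, with 733 and 537 TPM against 759 and 532 TPM. ERP29, a redox-inactive member of the family, was at 171 and 174 TPM against 211 and 197 TPM, and ERP44, which retrieves unassembled proteins from the Golgi, at 79.6 and 85.3 TPM against 77.2 and 66.5 TPM. The 9 disulfide enzymes that did not pass had log2 fold changes between −0.20 (ERP44) and 0.26 (P4HB). With the block, P4HB, TXNDC5 and ERP29 passed as higher (limma adjusted p 0.00272, 0.0300 and 0.0183). With the block and median scaling none of these 3 did, and ERP44 passed as lower (limma adjusted p 0.0423).

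None of the 3 lectin chaperone genes passed. CALR (NM_004343), the soluble lectin chaperone calreticulin, was listed at 1458 and 1777 TPM with DMSO and at 1162 and 1416 TPM with JG342. Both treated libraries lay below both controls, although JG342 replicate 2 and DMSO replicate 1 were close. The log2 fold change was −0.33 ± 0.13 (limma adjusted p 0.111), and −0.33 in each pair. It passed as lower with the block (limma adjusted p 6.76e-05) and with the block and median scaling (0.0169). CANX, its membrane-bound counterpart calnexin, was at 532 and 556 TPM against 627 and 525 TPM, with overlap. UGGT1, which puts glucose back on unfinished glycoproteins so that the lectins bind them again, was at 38.3 and 37.5 TPM against 43.2 and 34.5 TPM, also with overlap. The ratio of CALR to CANX was 2.74 and 3.20 with DMSO and 1.85 and 2.69 with JG342.

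The 3 prolyl isomerases, which turn the peptide bond before proline, did not pass. PPIB (NM_000942), cyclophilin B, was listed at 1641 and 1564 TPM with DMSO and 1684 and 1925 TPM with JG342, a log2 difference of 0.17 ± 0.10 (limma adjusted p 0.275). FKBP2 showed little spread within each treatment, at 217 and 213 TPM against 257 and 263 TPM. Its log2 difference of 0.27 ± 0.09 lay just outside the threshold (limma adjusted p 0.0625; 0.0368 after quantile normalization; 0.00492 with the block). FKBP11, an isomerase abundant in secretory cells, was at 376 and 289 TPM against 299.7 and 272 TPM, and the ranges overlapped. It passed as lower with the block (limma adjusted p 0.0325), and neither FKBP2 nor FKBP11 passed with the block and median scaling.

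Of the 4 other folding factors of the ER lumen, only CRELD2 passed, as higher (25%, against 10.8% of all fitted genes). CRELD2 (NM_001135101), a secreted and ER-resident protein with disulfide isomerase activity that is induced by ER stress, was listed at 58.5 and 47.3 TPM with DMSO and at 77.2 and 74.4 TPM with JG342. The treated libraries were close to each other and above both controls. It rose from 52.9 ± 7.91 to 75.8 ± 2.03 TPM (SD, n = 2), by 0.52 ± 0.12 (limma adjusted p 0.0205; 0.0534 after median scaling). MANF, a secreted cofactor of the ER HSP70 protein, was at 363 and 418 TPM against 448 and 478 TPM, without overlap, but did not pass (log2 difference 0.25 ± 0.10, limma adjusted p 0.120; 0.00678 with the block; 0.119 with the block and median scaling). SDF2L1, a partner of ER J-domain proteins, was at 76.9 and 85.5 TPM against 86.9 and 92.6 TPM (limma adjusted p 0.367). MZB1 (NM_016459), which helps immunoglobulin assembly in plasma cells and was the most abundant of these 4, was at 1566 and 1450 TPM against 1442 and 1502 TPM, with a log2 difference of −0.03 ± 0.09.

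Reads of 6 folding genes could be shared with other transcripts: FKBP11, P4HB, PDIA3, PDIA6, PPIB and TXNDC5. They have between 20.6% and 79.9% of their transcript in common with an overlapping gene, a read-through transcript or, for PDIA3, a pseudogene. None of the 6 passed, and how their reads were divided is not known.

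The calls on both folding genes that passed depended on single libraries and settings. ERO1B passed in 1 and CRELD2 in 2 of the 4 fits that each left out 1 library, and neither passed without the filter on low values (limma adjusted p 0.104 and 0.0820).

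**Figure D4:**
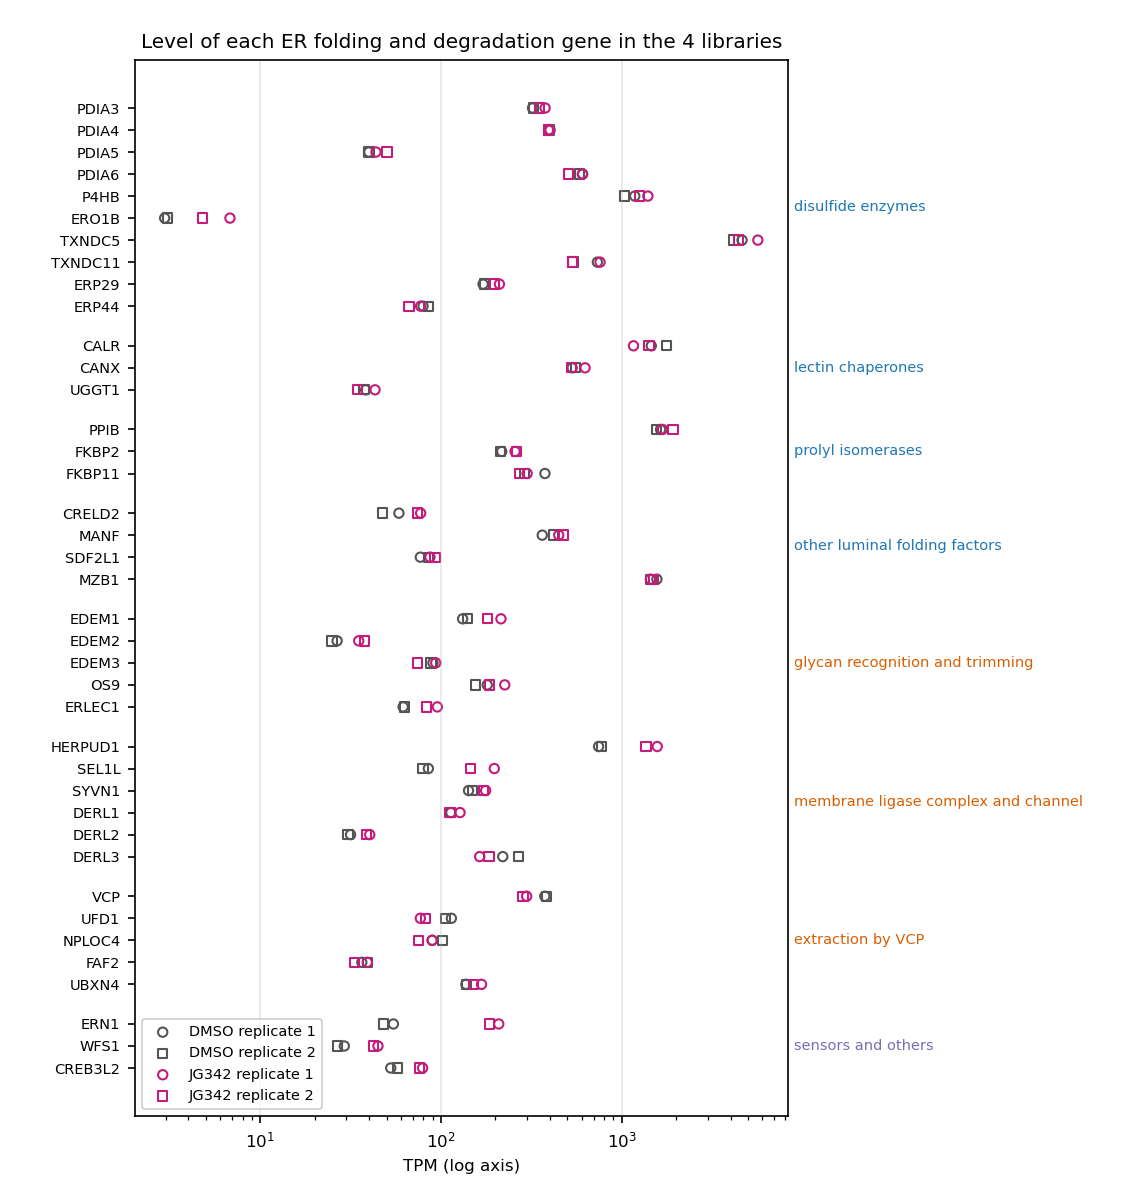
TPM (horizontal log axis) of each of the 39 genes in the 4 libraries, grouped by role; grey symbols are DMSO, magenta symbols JG342, circles replicate 1 and squares replicate 2. On this log axis most folding genes show grey and magenta symbols close together. The 2 treatments still did not overlap for 12 of the 20 folding genes, beside 62.1% of all fitted genes. ERN1, HERPUD1 and SEL1L show magenta symbols well to the right of grey.

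The degradation genes are ordered along the route of a misfolded protein. Of the 5 genes for recognising and trimming sugar chains, 3 rose (60%, against 10.8% of all fitted genes). EDEM1 (NM_014674), a mannosidase-like protein that marks misfolded glycoproteins, was listed at 132 and 139.9 TPM with DMSO and at 215 and 182 TPM with JG342. It rose from 136 ± 5.69 to 198 ± 23.5 TPM (SD, n = 2), by 0.54 ± 0.11 (limma adjusted p 0.0110). EDEM2 (NM_001145025), which starts mannose trimming, was at 26.6 and 24.9 TPM against 35.1 and 37.9 TPM. It rose by 0.48 ± 0.12 (limma adjusted p 0.0209). ERLEC1 (NM_001127397), a lectin that binds trimmed glycans, was at 61.8 and 62.6 TPM against 95.5 and 82.9 TPM, and rose by 0.51 ± 0.11 (limma adjusted p 0.0133). In each of these 3 genes both treated libraries lay above both controls.

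OS9 (NM_001017956), the other lectin of this step, was at 180.4 and 156 TPM with DMSO and at 226 and 186 TPM with JG342. Its log2 difference of 0.29 ± 0.12 missed the threshold (limma adjusted p 0.129; 0.00348 with the block; 0.0537 with the block and median scaling). EDEM3, the third mannosidase of the family, was at 90.4 and 88.1 TPM against 93.6 and 74.0 TPM, with overlap and a log2 fold change of −0.10. The ratio of EDEM1 to EDEM3 was 1.46 and 1.59 with DMSO and 2.29 and 2.45 with JG342.

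In the membrane ligase complex, HERPUD1 and SEL1L had the 2 largest rises among the degradation genes. SEL1L (NM_001244984), the scaffold that holds the ligase SYVN1 and passes substrates to it, was listed at 85.2 and 79.5 TPM with DMSO and at 197 and 145 TPM with JG342. It rose from 82.3 ± 3.98 to 171 ± 36.7 TPM (SD, n = 2), by 1.03 ± 0.14 (limma adjusted p 0.00231). HERPUD1 (NM_001010989), a ubiquitin-like membrane protein that assembles the complex and whose promoter is shown above, was at 745 and 773 TPM against 1573 and 1362 TPM. It was the most abundant of the degradation genes and rose by 0.95 ± 0.10 (limma adjusted p 0.000694). In HERPUD1 the treatments were far apart compared with the distance between replicates. In SEL1L both treated libraries lay above both controls, and the 2 treated libraries were themselves far apart. Both genes passed in all 4 fits that left out a library.

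SYVN1 (NM_032431), the ubiquitin ligase HRD1 itself, was at 142 and 149 TPM with DMSO and at 177 and 173 TPM with JG342. It did not pass (log2 difference 0.26 ± 0.09, limma adjusted p 0.0805; 0.0444 after quantile normalization; 0.0113 with the block; 0.0831 with the block and median scaling; 0.153 with median scaling alone). The ratio of SEL1L to SYVN1 transcripts was 0.599 and 0.533 with DMSO and 1.12 and 0.843 with JG342. The ratio of HERPUD1 to SYVN1 was 5.24 and 5.18 against 8.90 and 7.90.

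The 3 derlins, membrane proteins of the channel through which substrates leave the ER, did not move alike. DERL3 (NM_001002862), the derlin of secretory cells, was listed at 219.8 and 268 TPM with DMSO and at 164 and 184 TPM with JG342. It fell from 244 ± 33.7 to 174 ± 14.7 TPM (SD, n = 2), with a log2 difference of −0.48 ± 0.12 (limma adjusted p 0.0240). DERL2 was at 31.6 and 30.6 TPM against 40.4 and 38.8 TPM, a log2 difference of 0.34 ± 0.11 that missed the threshold (limma adjusted p 0.0625; 0.0124 with the block; 0.0444 with the block and median scaling). DERL1 was at 113 TPM in both DMSO libraries and 128 and 112 TPM with JG342. The ratio of DERL3 to DERL2 was 6.95 and 8.73 with DMSO and 4.06 and 4.76 with JG342. The DERL3 value is less certain than the others, because 60.0% of its transcript matches transcripts of SMARCB1 and strand use in counting is not given in the sources used here. SMARCB1 was at 105 and 123 TPM against 96.7 and 94.7 TPM (log2 fold change −0.25, limma adjusted p 0.142), and its part in the DERL3 value was not tested.

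SELENOS (NM_018445), the gene listed as VIMP, encodes a selenoprotein that recruits VCP to the derlins. It was at 119.7 and 112 TPM with DMSO and at 187 and 176 TPM with JG342. It rose from 116 ± 5.18 to 181 ± 7.88 TPM (SD, n = 2), by 0.64 ± 0.10 (limma adjusted p 0.00321), by the same 0.64 in each pair.

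At the extraction step 2 of the 5 genes passed, both lower with JG342 (40%, against 7.62% of all fitted genes). VCP (NM_001354927), the ATPase that pulls substrates out of the membrane, was listed at 375 and 385 TPM with DMSO and at 298 and 285 TPM with JG342. It fell from 380.1 ± 6.46 to 291 ± 9.16 TPM (SD, n = 2), with a log2 difference of −0.38 ± 0.09 (limma adjusted p 0.0187). UFD1 (NM_001035247), which with NPLOC4 forms the adaptor of VCP for ubiquitinated proteins, was at 114 and 106 TPM against 76.9 and 82.4 TPM. It fell by 0.46 ± 0.10 (limma adjusted p 0.0143). Both treated libraries lay below both controls in each gene. NPLOC4, the partner of UFD1, was at 89.5 and 102 TPM against 89.3 and 75.0 TPM, with pair values of −0.002 and −0.44 and a limma adjusted p of 0.235 (0.0482 with the block and median scaling).

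FAF2 and UBXN4, membrane-anchored proteins that bring VCP to the ER, did not pass. UBXN4 (NM_014607) was at 137 and 138 TPM with DMSO and at 168 and 152 TPM with JG342 (log2 difference 0.21 ± 0.10, limma adjusted p 0.163). FAF2 was at 36.5 and 39.2 TPM against 39.1 and 33.2 TPM, with overlap. Within the trimer of VCP, UFD1 and NPLOC4, the ratio of VCP to UFD1 transcripts was 3.29 and 3.63 with DMSO and 3.87 and 3.46 with JG342, so the 2 groups overlapped in this ratio.

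The calls on most degradation genes depended on which libraries were used. Besides HERPUD1 and SEL1L, no degradation gene passed in all 4 fits that left out a library, and without the filter on low values the 6 others did not pass (limma adjusted p 0.0504 to 0.0974). Without DMSO replicate 2 only HERPUD1 and SEL1L passed among the 16. Without DMSO replicate 1 DERL3 passed with them, and 5 of the 16 passed without JG342 replicate 1. Without JG342 replicate 2, 7 of the 16 passed, 6 of them among the original 8.

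As a share of all transcripts, the 20 folding genes together took 1.46% and 1.39% of all TPM with DMSO, and 1.58% and 1.44% with JG342, with overlap between treatments. Without TXNDC5 the other 19 summed to 9859 and 9618 TPM against 10005 and 9936 TPM. The degradation genes summed to 2581 and 2654 TPM with DMSO and to 3614 and 3206 TPM with JG342. HERPUD1 supplied most of that difference. Without it the other 15 degradation genes summed to 1836 and 1881 TPM against 2041 and 1844 TPM, and the groups overlapped.

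The 3 further genes all rose. ERN1 (NM_001433) encodes IRE1, the ER membrane sensor whose nuclease splices the mRNA of XBP1. It was listed at 54.6 and 48.0 TPM with DMSO and at 209 and 186 TPM with JG342. The mean went from 51.3 ± 4.62 to 197 ± 16.3 TPM (SD, n = 2), 3.85 times the control mean, and the log2 difference of 1.92 ± 0.11 was the largest among the 39 genes (limma adjusted p 3.76e-05). It was 56th of the 12042 fitted genes by size of rise. The 2 pairs gave 1.92 and 1.93, and ERN1 passed in all 4 fits that left out a library.

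WFS1 (NM_001145853), wolframin, an ER membrane protein involved in calcium handling and in the turnover of ATF6, was at 29.2 and 26.8 TPM with DMSO and at 44.8 and 42.5 TPM with JG342. It rose by 0.62 ± 0.11 (limma adjusted p 0.00752). CREB3L2 (NM_001253775), a membrane-bound transcription factor that is cleaved on ER stress and drives secretory genes, was at 52.8 and 57.2 TPM against 79.2 and 75.8 TPM. It rose by 0.49 ± 0.10 (limma adjusted p 0.0131). Both groups were separate in each gene. Without DMSO replicate 2 neither passed (limma adjusted p 0.0634 and 0.0535), and without DMSO replicate 1 CREB3L2 did not (0.0886).

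Other ER quality control genes were taken from 4 lists of 67 genes in all, also chosen with earlier results of these data known. Of these, 64 were in the table and 63 were fitted. Of the 63, 13 rose and 2 fell, 23.8% against the 18.4% of all fitted genes, with a median log2 fold change of 0.11. The ER chaperones and their J-domain and exchange partners held 7 of these, all higher (7 of 11, median 0.47). That was 63.6%, against 10.8% of all fitted genes. HSPA13 (NM_006948), a small HSP70-like protein, was at 42.6 and 52.0 TPM against 116 and 100.5 TPM and rose by 1.18 ± 0.13 (limma adjusted p 0.000751). DNAJB9 (NM_012328), the J protein that restrains IRE1, was at 80.3 and 64.4 TPM against 166 and 124 TPM and rose by 0.99 ± 0.16 (limma adjusted p 0.00434). HSPA5, HYOU1, SIL1, DNAJC1 and SEC63 also passed, and HSP90B1, DNAJB11, DNAJC3 and DNAJC10 did not.

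Of the other disulfide and redox genes, none rose and 2 of 14 fell (14.3%, against 7.62% of all fitted genes; median −0.06). TMX1 (NM_030755), a membrane-bound thioredoxin-like protein, was at 36.7 and 35.2 TPM against 24.6 and 23.5 TPM and fell by 0.56 ± 0.11 (limma adjusted p 0.0108). ERP27 (NM_001300784), a non-catalytic member of the disulfide isomerase family, was at 3.59 and 3.79 TPM against 1.67 and 1.29 TPM and fell by 0.92 ± 0.19 (limma adjusted p 0.0127). Of the other degradation genes, 4 of 29 rose (13.8%, near the 10.8% of all fitted genes; median 0.09). HERPUD2 (NM_022373), the relative of HERPUD1, was at 14.2 and 15.7 TPM against 28.2 and 23.6 TPM and rose by 0.75 ± 0.14 (limma adjusted p 0.00802). UBXN6 (NM_001171091), another VCP cofactor, was at 66.9 and 63.7 TPM against 91.6 and 95.3 TPM and rose by 0.51 ± 0.10 (limma adjusted p 0.00951). MAN1B1 and RNF185 also rose.

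Of the sensors and transcription factors, 2 of 9 passed (22.2%, against 18.4% of all fitted genes). DDIT3 (NM_001195053), the stress factor CHOP, was at 20.7 and 41.9 TPM with DMSO and 283 and 295 TPM with JG342, a rise of 3.25 ± 0.25 (limma adjusted p 0.000141). CREB3 (NM_006368), a relative of CREB3L2, was at 37.3 and 42.8 TPM against 51.8 and 59.0 TPM and rose by 0.46 ± 0.12 (limma adjusted p 0.0309; 0.0664 after median scaling). The other ER sensors did not pass: ATF6 was at 43.8 and 38.4 TPM against 48.4 and 34.0 TPM, and EIF2AK3, which encodes PERK, at 53.9 and 51.2 TPM against 68.7 and 48.3 TPM. XBP1 was at 1185 and 997 TPM against 1274 and 1090 TPM (log2 fold change 0.12, limma adjusted p 0.527). The table has 1 row per gene, so spliced and unspliced XBP1 are not separated.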

How the data were processed

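The deposited table holds 1 value per gene and library, with a symbol and a RefSeq mRNA accession for each gene. The submitters' processing notes name HISAT2 2.0.4, Bowtie2 2.2.5 and RSEM 1.2.12. The genome build and strand use are not given in the sources used here. The unit of the values deposited by the authors was taken to be TPM from their near-constant library totals. TPM holds no read depth, so no counting interval is given. The table has 1 column for each of the 4 libraries and no others.

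Values were transformed to log2(TPM + 1), which understates changes of genes with low values, and 12042 genes whose mean reached 1 TPM were fitted (4015 were not). JG342 and DMSO were compared with limma 3.58.1 in R 4.3.3, with a mean-variance trend, 2 residual and 6.89 prior degrees of freedom, and two-sided p-values adjusted by Benjamini-Hochberg over all fitted genes. The fit was tested on simulated data in which noise was independent between libraries and its size followed from each gene's level alone. Fewer genes were changed there than passed here. That test does not cover an effect shared by same-numbered libraries, or a spread that differs between genes of equal level. Same-numbered libraries share a prefix in the labels' descriptions, whose meaning is not stated. Their deviations from the group means correlated (Pearson 0.27, Spearman 0.30, across genes), so the number was also fitted as a block.

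The members and lists were chosen with earlier results of these data known. Genes named with full values are the members that passed, the most abundant of each role that did not, and, in each further list, up to 2 with the largest rise and 2 with the largest fall among those that passed. Beyond that rule the other members are given by their values, and further genes such as ERO1A, SMARCB1, XBP1, ATF6 and EIF2AK3 were chosen after their values were seen. Promoter windows are RefSeq's on GRCh38.p14. Shared transcript sequence was searched with BLAST 2.17.0 against GENCODE release 29, at 95% identity over at least 20% of the transcript. One marker check is not reported here.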

Additional observations from a re-analysis of the deposited data

How the results depend on the processing

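With 2 libraries per treatment, 3 of the 13 calls (HERPUD1, SEL1L and ERN1) held in each fit that left out a library, and a lone library was then assumed to vary like the other group. Those fits gave 773 to 1905 genes over the whole table, 0 to 3 of the folding genes, 2 to 7 of the degradation genes, 1 to 3 of the further genes, 3 to 13 of all members and 6 to 18 of the other ER quality control genes. Without the filter on low values these counts were 828 genes, 0 folding, 2 degradation, 5 members and 7 other quality control genes by limma. Without the mean-variance trend they were 1 folding, 5 degradation and 9 other quality control genes. A minimum mean of 5 TPM left 1 folding gene, since ERO1B was not fitted, and median scaling left 1. The causes of the other shifts were not tested.

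With the replicate block, 4207 genes passed over the whole table, 9 folding genes, 23 members and 26 other quality control genes. With the replicate block and median scaling these were 3985, 4, 17 and 23. Neither block fit lost a call among the 13.

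The genes whose sign turned had not passed. With median scaling, with or without the block, PDIA4 was at −0.060, TXNDC11 at −0.051 and UGGT1 at −0.041. With quantile normalization TXNDC5 was at −0.061 and UGGT1 at −0.012. Over the fits that left out a library the log2 fold change ran from −0.0072 to 0.024 for PDIA4, −0.23 to 0.022 for PDIA6, −0.24 to 0.27 for TXNDC11, −0.049 to 0.21 for CANX, −0.13 to 0.18 for UGGT1, −0.090 to 0.022 for MZB1, −0.27 to 0.069 for EDEM3, −0.014 to 0.17 for DERL1 and −0.18 to 0.048 for FAF2.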
